A study of Mus musculus with 6 samples.

Results

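Genes of the extracellular matrix, of the proteases that cut it and of the inhibitors of these proteases were examined in HL-1, an immortal line of mouse heart muscle cells that arose from a tumour of the atrium and keeps features of atrial muscle in culture. The set held 40 genes taken from a list by gene symbol: 13 of the basement membrane, 16 of the fibrillar and interstitial matrix, 6 matricellular and mineral-binding proteins and 5 proteases and inhibitors. Of the 40, 38 had a named probe set among the 18193 genes with one on the array, and 27 of these were bright enough to be tested, beside 11332 genes tested in all. Fbn1 and Spp1 were not analysed here. Each gene was represented by its probe set with the highest mean log2 signal over all 6 arrays.

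Confluent HL-1 cells had been kept for 8 hours in hypoxia at 1% oxygen (3 arrays) or in normoxia at 21% oxygen (3 arrays), and total RNA was measured on 1-colour Affymetrix mouse arrays. No genotype, drug or transfection separated the groups, and all arrays came from this 1 line. Nothing in the labels shows that the samples of a group were grown apart from each other. The p-values therefore rest on the spread among 3 samples that may be technical repeats. The values are MAS5 signals in arbitrary units, already scaled by the authors. Probe sets differ in how well they hybridise, so a signal is compared here between arrays and not between genes, and a low signal can come from a poor probe set as well as from a rare transcript.

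The basement membrane is a thin sheet that surrounds each cardiomyocyte. It is built from type IV collagen and laminin networks, which nidogens and the proteoglycans perlecan and agrin hold together. The interstitial matrix between cells is built from fibrillar collagens, fibronectin and elastic fibres and in the heart is made largely by fibroblasts. Matricellular proteins act on cells more than they bear load, and metalloproteinases cut matrix proteins under the control of the TIMP inhibitors. Low oxygen is known to induce enzymes that modify collagen and, in many cell types, some of the matrix genes themselves.

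Within each condition 1 array stood apart. The first principal component of the deviations from the group means took 42.3% of the variance within groups, and hypoxia array 3 and normoxia array 1 lay on one side of it (0.58 and 0.54) with the other 4 arrays on the other side (-0.41 to -0.17). Matrix genes were among those that differed in these 2 arrays, so values without one or both of them are given beside many of the results. What set these arrays apart was not tested.

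No matrix gene changed with hypoxia in the test across all genes. Of the 27 tested, 0 passed at an adjusted p under 0.05 (limma, Benjamini-Hochberg), where 0.750% of the 11332 genes tested passed (85 genes) and 0.608% of the 22518 probe sets tested. At an unadjusted p under 0.05 there were 4, all higher in hypoxia, which is 14.8% of the 27 beside 12.4% of all genes. The 3 hypoxia signals lay all above the 3 normoxia signals for 3 of the 27, and all below for 0, while among all genes the groups did not overlap for 18.1%. The share at an unadjusted p was near the background, and that of groups without overlap was below it. Log2 fold changes, hypoxia over normoxia throughout, were above 0 for 16 of 27, beside 44.4% of all genes, with a median of 0.19 beside -0.04 over all genes.

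The absence of a call did not show that levels stayed the same. The 95% interval of the log2 fold change lay inside -1 to 1, that is within a factor of 2 either way, for 10 of the 27 genes, and inside -0.5 to 0.5 for Mgp and Timp2 alone. For the other 17 the interval reached a change by a factor of 2 in at least 1 direction. The roles differed in where they lay. The median log2 fold change was 0.09 for the 10 basement membrane genes, 0.32 for the 10 fibrillar and interstitial genes, 0.31 for the 2 matricellular genes and -0.19 for the 5 proteases and inhibitors. The differences between roles were not tested.

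**Figure D1:**
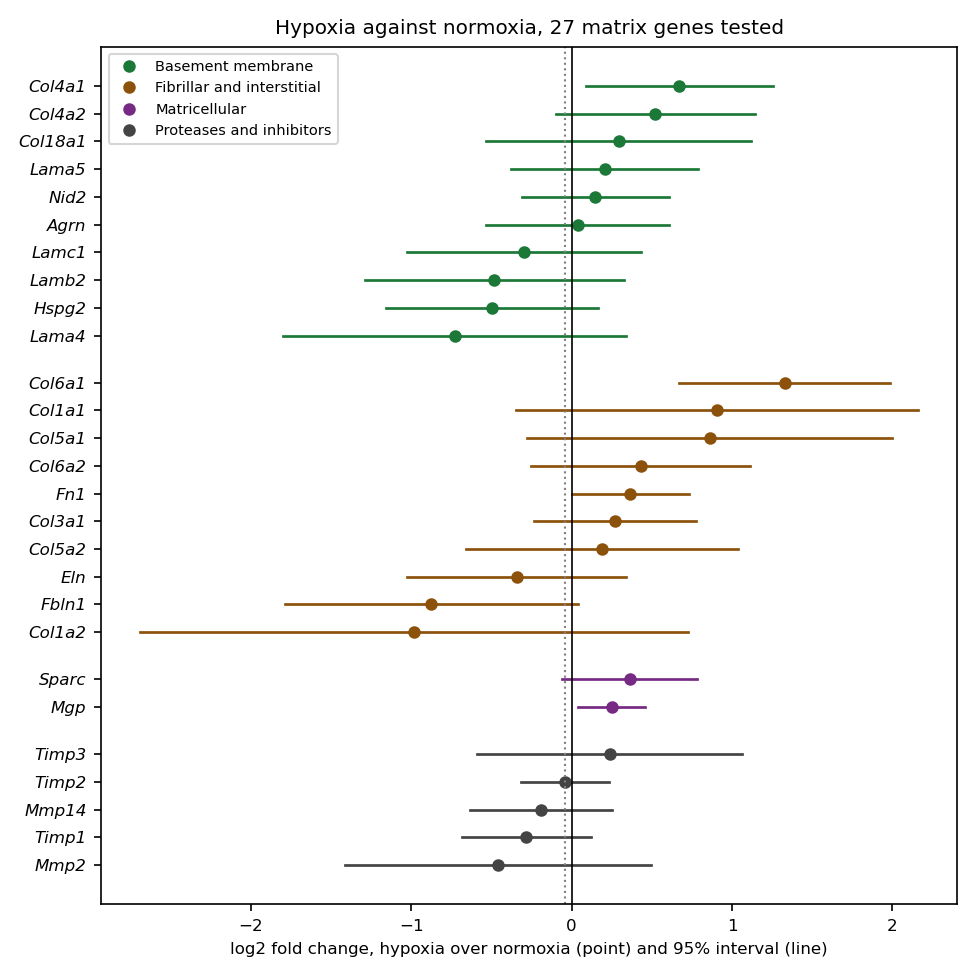
Log2 fold changes (hypoxia over normoxia, points) with 95% intervals (lines, limma) for the 27 matrix genes tested, by role, 3 arrays per group; the solid line marks 0 and the dotted line the median over all genes, -0.04. Intervals of Col6a1, Col4a1, Mgp and Fn1 lie above 0, and 0 of the 27 genes passed after adjustment.

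Of the tested basement membrane genes of the set, Col4a1 and Col4a2 had the highest log2 fold changes. Col4a1, which encodes the α1 chain of the network that gives this sheet its strength, had signals of 989.8, 1168.5 and 626.1 in hypoxia and 399.8, 654.3 and 685 in normoxia. Hypoxia arrays 1 and 2 were above all normoxia arrays, while hypoxia array 3 fell among them and normoxia array 1 was lowest. The log2 fold change was 0.67 (SE 0.26, 95% interval 0.09 to 1.25, adjusted p = 0.387, limma). Col4a2, which encodes the α2 chain of the same trimer, had signals of 326.7, 426.7 and 241.5 in hypoxia and 150.1, 257.5 and 294.1 in normoxia, a difference of 0.52 on the log2 scale (SE 0.28, adjusted p = 0.54). On these probe sets the 6 arrays stood in the same order for both chains, from normoxia array 1 as the lowest to hypoxia array 2 as the highest. The other tested probe set of Col4a1 had another order, with hypoxia array 3 (264.4) above hypoxia array 1 (230.3). Without normoxia array 1 the log2 fold change was 0.42 for Col4a1 and 0.23 for Col4a2. The 4 other type IV chains were tested outside the set. Col4a4 was at 0.49, near Col4a2, while Col4a3 was at 0.28, Col4a5 at 0.07 and Col4a6 at -0.26. Their adjusted p lay between 0.427 and 0.881 (limma). Col4a4 passed, as Col4a1 did, in a fit described below with the within-group component as covariate, where 5.75% of all genes passed.

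Col4a1 and Col4a2 lie head to head. Their promoters are shown because the signals of the 2 probe sets that represent them moved together from array to array. In the RefSeq annotation of GRCm38.p6 their start sites lie 21 bases apart on opposite strands of chromosome 8. The windows run from 250 bases before each start site to 50 bases from it on, at chr8:11312777-11313076 on the minus strand for Col4a1 and chr8:11312555-11312854 on the plus strand for Col4a2. Capitals mark the 78 bases that both windows hold, each the reverse complement of the other.
Col4a1: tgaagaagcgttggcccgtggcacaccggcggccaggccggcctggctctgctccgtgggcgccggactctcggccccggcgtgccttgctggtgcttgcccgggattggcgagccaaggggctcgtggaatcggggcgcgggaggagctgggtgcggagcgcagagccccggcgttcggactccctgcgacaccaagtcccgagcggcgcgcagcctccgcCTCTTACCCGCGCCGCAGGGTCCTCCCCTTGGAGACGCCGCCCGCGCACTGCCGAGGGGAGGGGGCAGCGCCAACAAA
Col4a2: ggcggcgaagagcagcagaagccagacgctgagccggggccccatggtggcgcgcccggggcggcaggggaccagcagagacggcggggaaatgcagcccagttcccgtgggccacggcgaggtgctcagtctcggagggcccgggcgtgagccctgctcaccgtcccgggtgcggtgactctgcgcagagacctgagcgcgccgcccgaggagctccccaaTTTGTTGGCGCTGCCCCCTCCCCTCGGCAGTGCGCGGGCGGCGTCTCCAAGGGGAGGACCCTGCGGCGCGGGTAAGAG
Both windows hold 1 copy of GCGTG, a core letter sequence bound by HIF, on the strand shown, 171 bases before the start site in Col4a1 and 105 bases before it in Col4a2. Of the 40 matrix genes, 28 had 1 or more windows in the RefSeq table, 35 windows in all. ACGTG or GCGTG stood on either strand in 45.7% of these windows and in 43.8% of all 32851 promoter windows of this length, and GCGTG alone in 37.1% and 32.4%. A match is a description of letters and not a binding site.

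Laminins and the molecules that link the networks gave values on both sides of 0. Lamc1, the γ1 chain shared by most laminins, had signals of 182.1, 257.2 and 98.9 in hypoxia and 152.7, 240.6 and 233.9 in normoxia. Its groups overlapped fully, with a log2 fold change of -0.30 (95% interval -1.02 to 0.43). That value was -0.13 without both arrays that stood apart and 0.08 without hypoxia array 3 alone. The other tested probe set of Lamc1 gave 0.29. Hspg2, which encodes the proteoglycan perlecan, had 67.2, 121.4 and 108.1 in hypoxia and 103.7, 201.6 and 118.9 in normoxia (log2 fold change -0.50, 95% interval -1.16 to 0.16, adjusted p = 0.583). It was -0.78 without both arrays. Lama4, a laminin α chain of vessels and muscle, had the lowest log2 fold change of the tested basement membrane genes at -0.73 (SE 0.48), on signals between 8.4 and 32.4. Lamb2 had -0.48, and -0.08 without hypoxia array 3. Lama5 had 0.21, with 0.04 without normoxia array 1 and 0.47 without hypoxia array 3. Nid2, a nidogen, had 0.15, Col18a1, the source of endostatin, 0.29, and Agrn, the proteoglycan agrin, 0.04. The adjusted p of these 6 lay between 0.622 and 0.969.

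In the interstitial matrix, the gene with the smallest p of the whole set was Col6a1. It encodes the α1 chain of type VI collagen, which forms beaded filaments near the basement membrane. Its signals were 84.9, 60.3 and 43.3 in hypoxia and 21.2, 26.8 and 24.7 in normoxia. The lowest hypoxia array was well above the highest normoxia array, and the 3 normoxia arrays lay close together. The fold was 2.51 (log2 fold change 1.33, SE 0.29, 95% interval 0.67 to 1.98), with an unadjusted p of 0.00119 and an adjusted p of 0.1 that missed the threshold. It passed with array weights (adjusted p = 0.0223, limma), where 2.44% of all genes passed. Over the 19 alternatives that gave it a value its adjusted p ranged from 0.0158 to 0.376. Col6a1 had 1 probe set, so no other one could be set beside it.

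The partner chains of type VI collagen gave smaller values. Col6a2 had signals of 80.4, 77.2 and 53.2 in hypoxia and 32.6, 61.7 and 67.2 in normoxia, where only normoxia array 1 was clearly below the rest. The difference was 0.43 on the log2 scale (SE 0.31, adjusted p = 0.647), and its other probe set gave 0.50. Without normoxia array 1 the difference was 0.10, and without both arrays 0.29. Col6a3, not in the set but part of the same trimer, had 18.2, 26 and 27.6 in hypoxia and 30.1, 23.3 and 20.9 in normoxia, with a log2 fold change of -0.06 (95% interval -0.79 to 0.68).

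Fbln1 encodes fibulin 1, a glycoprotein of elastic fibres and basement membranes and a binder of fibronectin. It had signals of 867.3, 710.2 and 355.7 in hypoxia and 579.3, 1674.7 and 1390.7 in normoxia. Normoxia arrays 2 and 3 were above all others, and normoxia array 1 lay within the hypoxia range. The log2 fold change was -0.87 (SE 0.41, 95% interval -1.79 to 0.04, adjusted p = 0.479). It was -0.49 without hypoxia array 3 and -1.34 without normoxia array 1. Its other tested probe sets pointed the same way, with log2 fold changes of -0.70 (adjusted p = 0.434) and -0.33 (adjusted p = 0.752). Fn1, fibronectin, had 178, 151 and 143.6 in hypoxia and 128.1, 117.5 and 119.8 in normoxia. Its groups did not overlap, and hypoxia array 3 and normoxia array 1 lay near their groups. The fold was 1.29 (log2 fold change 0.37, SE 0.16, 95% interval 0.002 to 0.73, adjusted p = 0.454). Another probe set of Fn1, too dim to be tested, had a log2 fold change below 0 with overlapping groups. Its signals were 11.3, 4.3 and 7.7 in hypoxia and 11.2, 12.6 and 8.6 in normoxia.

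Fibrillar collagens gave dim signals that varied widely between arrays. Col3a1, the α1 chain of type III collagen, had 64.9, 93.5 and 76.6 in hypoxia and 78.6, 53.2 and 63.4 in normoxia (log2 fold change 0.27, 95% interval -0.23 to 0.77, and 0.42 without both arrays). Col1a1, the α1 chain of type I collagen, had 25.3, 86.9 and 20.3 in hypoxia and 11.2, 27.6 and 22 in normoxia. Hypoxia array 2 was far above the rest. The log2 fold change was 0.90 (SE 0.56), and 0.26 in the fit without that array. Without normoxia array 1 it was 0.53. Col1a2, the α2 chain of the same type I trimer, went the other way with a log2 fold change of -0.98 (SE 0.76), on signals of 3.1, 21 and 19 in hypoxia and 10.8, 27.4 and 32.3 in normoxia. Without hypoxia array 1 it was -0.09, and without hypoxia array 3 and normoxia array 1 together -1.88. Col5a1 and Col5a2, chains of the type V collagen that nucleates fibrils, had 0.86 (0.34 without normoxia array 1) and 0.19, and Eln, elastin, -0.34. Another probe set of Col5a1, too dim to be tested, lay the other way. It had 7.3, 3.3 and 0.7 in hypoxia and 15, 8.5 and 16 in normoxia. The adjusted p of Col1a1, Col1a2, Col3a1, Col5a1, Col5a2 and Eln lay between 0.582 and 0.891.

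**Figure D2:**
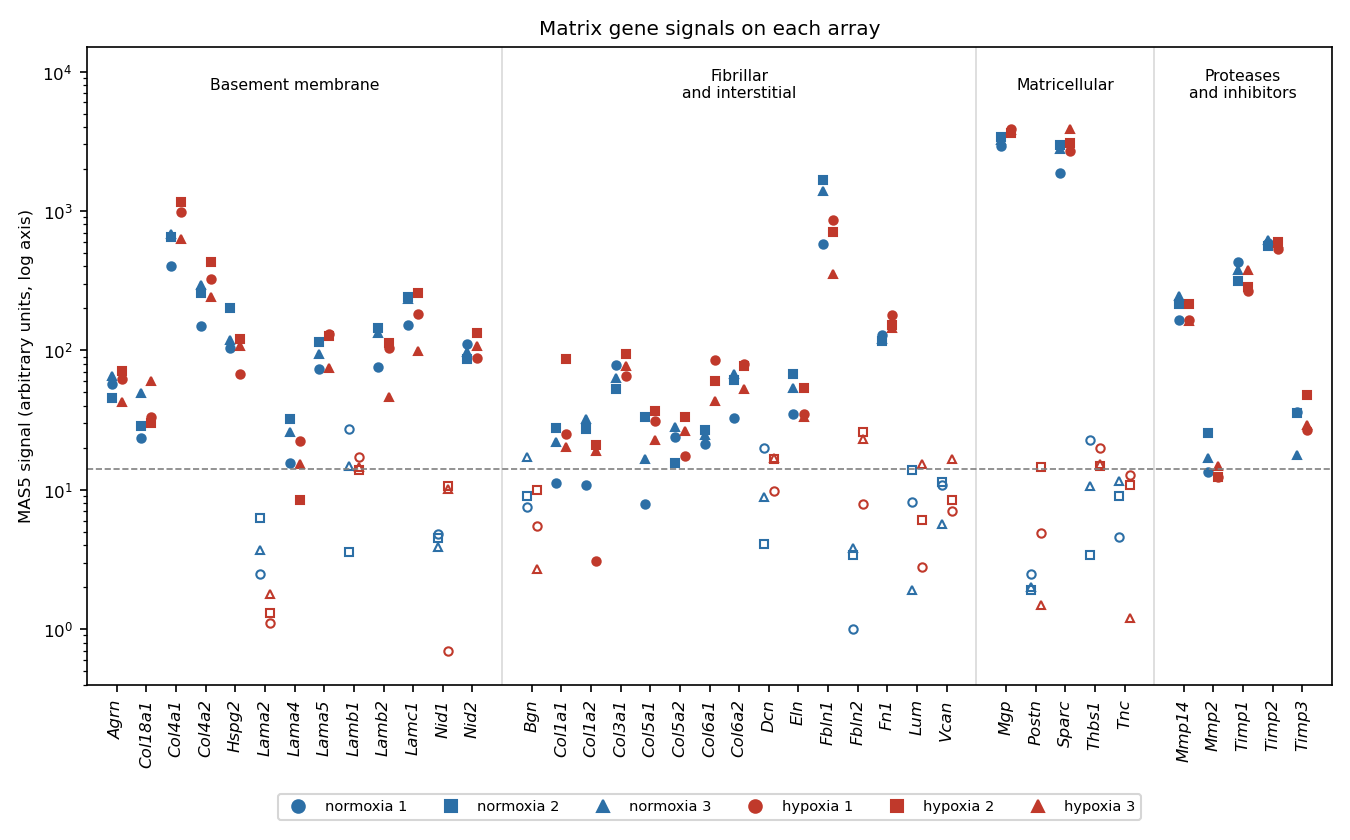
MAS5 signal (arbitrary units, log axis) of the 38 matrix genes on each of the 6 arrays, by role, with blue for normoxia and red for hypoxia and 1 symbol shape per replicate number. Filled symbols are the 27 genes above the filter at a geometric mean signal of 14.1 (dashed line) and open symbols the 11 below it; the groups of Col6a1, Fn1 and Mgp do not overlap among the filled ones.

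Both tested matricellular genes gave signals of 1864.9 or more on every array. Mgp, matrix Gla protein, an inhibitor of calcification, had 3885, 3620.6 and 3833.1 in hypoxia and 2932.5, 3397.2 and 3213 in normoxia. The groups did not overlap and the arrays of a group lay close together. The fold was 1.19 (log2 fold change 0.25, SE 0.09, 95% interval 0.04 to 0.46, adjusted p = 0.368, limma). The upper end of the interval was a 1.38-fold difference. Sparc, a collagen-binding glycoprotein also called osteonectin, had 2710.4, 3076.3 and 3902.8 in hypoxia and 1864.9, 2980.1 and 2760.3 in normoxia. Hypoxia array 3 was its highest and normoxia array 1 its lowest, and the other 4 arrays overlapped. Another probe set of Sparc in the same signal range gave 2202.4, 2395.7 and 2222.8 in hypoxia and 2068.5, 2519.5 and 2142.3 in normoxia, a log2 fold change of 0.02 (SE 0.11) beside the 0.36 of the first. That 0.36 was 0.15 without normoxia array 1 and 0.0098 without both arrays.

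Of the 5 proteases and inhibitors, 4 had log2 fold changes below 0 and 3 had intervals inside -1 to 1 (after centring each array on its median 3 were below 0, with Timp2 at 0.07). Mmp14, a membrane-bound metalloproteinase that activates Mmp2 at the cell surface, had signals of 165.7, 215.3 and 162.1 in hypoxia and 164.1, 214.4 and 244.7 in normoxia. Its log2 fold change was -0.19 (95% interval -0.63 to 0.25), and its other probe sets gave -0.25 and -0.21. Without normoxia array 1 it was -0.35. Mmp2, a gelatinase that degrades type IV collagen, had 12.3, 12.3 and 14.8 in hypoxia and 13.5, 25.6 and 16.9 in normoxia, close to the level of the filter (log2 fold change -0.46, SE 0.43, and -0.76 without both arrays). For Mmp14 the groups overlapped, and for Mmp2 only normoxia array 1 lay within the hypoxia range.

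Among the inhibitors, Timp2, which both blocks Mmp2 and helps Mmp14 to activate it, had 532.2, 600.4 and 592.6 in hypoxia and 589.6, 564 and 623.6 in normoxia. The ranges were nearly the same, with a log2 fold change of -0.04 (95% interval -0.32 to 0.23, adjusted p = 0.922). Timp1, a soluble inhibitor of most metalloproteinases, had 267.7, 284.3 and 375.4 in hypoxia and 431.4, 316 and 378.5 in normoxia (log2 fold change -0.28, 95% interval -0.69 to 0.12, adjusted p = 0.607). Without hypoxia array 3 it was -0.43, and without normoxia array 1 -0.18. Timp3, the inhibitor that binds to the matrix, had 27, 47.7 and 29.1 in hypoxia and 36, 35.6 and 17.8 in normoxia, and a log2 fold change of 0.24 (SE 0.37), which was 0.61 without normoxia array 1. The 3 inhibitors overlapped between the groups.

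Probe sets of the same gene gave a second reading for 12 of the 27 genes. All tested probe sets had the same sign for 8 of them: Col4a1, Col18a1, Lama5, Hspg2, Col1a1, Col6a2, Fbln1 and Mmp14. Signs differed for Lamc1, Sparc, Timp2 and Timp3. The other probe set of Col4a1 gave 230.3, 280.6 and 264.4 in hypoxia and 175.4, 239.8 and 211.9 in normoxia, where hypoxia array 3 stayed above all normoxia arrays, with a log2 fold change of 0.31 (SE 0.17). Timp3 was the least settled, with 0.24, 1.15 and -0.42 on its 3 tested probe sets. Timp2 had -0.33, -0.39 and -0.42 on 3 of its 4 other tested probe sets and 0.00 on the fourth. On the one at -0.42 the groups did not overlap, with 74.5, 82.1 and 66.9 in hypoxia and 86.5, 103.2 and 110.3 in normoxia (adjusted p = 0.453, limma). Of all 46 tested probe sets of these genes, the smallest adjusted p stayed that of Col6a1.

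**Figure D3:**
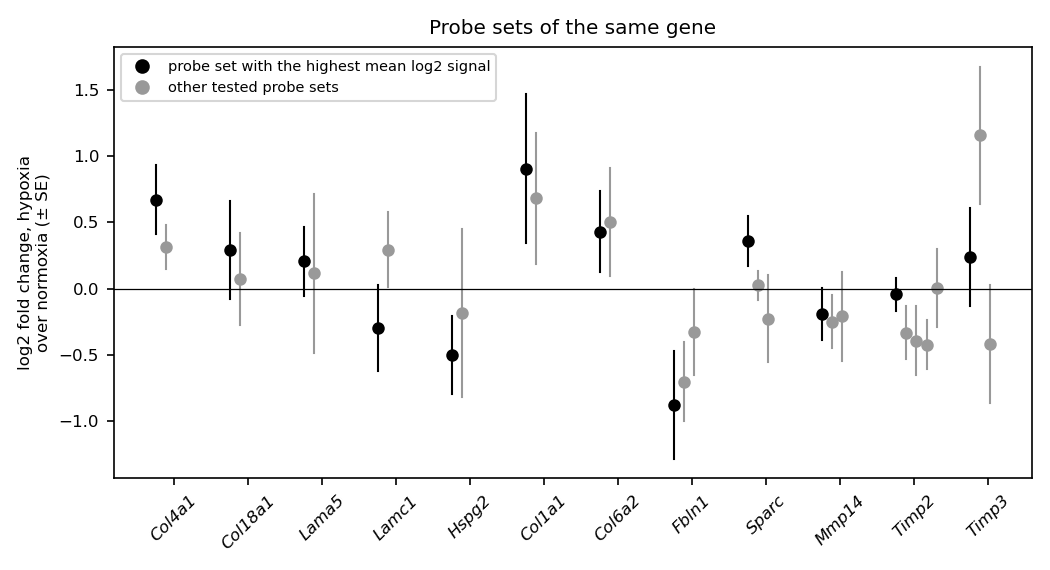
Log2 fold change (hypoxia over normoxia, ± SE from limma, 3 arrays per group) on every tested probe set of the 12 matrix genes with more than 1, black for the probe set with the highest mean log2 signal and grey for the others. The 3 probe sets of Fbln1 and of Mmp14 lie on the same side of 0, while those of Timp3 run from -0.42 to 1.15.

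The 11 genes below the filter had signals between 0.7 and 27.2 on the 6 arrays, a range where MAS5 values vary widely. They were the basement membrane genes Lama2, Lamb1 and Nid1, the interstitial genes Bgn, Dcn, Lum, Vcan and Fbln2, and the matricellular genes Postn, Thbs1 and Tnc. Bgn, Dcn and Lum encode small leucine-rich proteoglycans and Postn encodes periostin, products best known from fibroblasts. In the fit without a filter 0 of the 11 passed. The groups did not overlap for 2 of them, 18.2% beside 10.7% of the 6861 genes below the filter. These were Fbln2, another fibulin, with 7.9, 26 and 23.2 in hypoxia and 1, 3.4 and 3.8 in normoxia (adjusted p = 0.37 without a filter, limma), and Lama2, the main laminin α chain of muscle, with 1.1, 1.3 and 1.8 in hypoxia and 2.5, 6.3 and 3.7 in normoxia (adjusted p = 0.728). A second probe set of Fbln2 overlapped between the groups, with 0.4, 12.8 and 1.4 in hypoxia and 4.7, 2.5 and 2.2 in normoxia. At these signals no fold is given.

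Part of the spread was shared between matrix genes. Hypoxia array 3 was more than 0.5 log2 below the mean of hypoxia arrays 1 and 2, and normoxia array 1 more than 0.5 log2 below the mean of normoxia arrays 2 and 3, for 9 of the 27 genes, 33.3% beside 6.95% of all genes tested. These were 5 of the 10 basement membrane genes (Col4a1, Col4a2, Lama5, Lamb2 and Lamc1) and 4 of the 10 fibrillar and interstitial genes (Col1a1, Col5a1, Col6a2 and Fbln1), with 0 of the 7 others. Fbln1 was at -1.14 in hypoxia and -1.40 in normoxia, and Lamc1 at -1.13 and -0.64. The count uses 1 probe set per gene, and other tested probe sets did not all share the pattern. On that of Col4a1 hypoxia array 3 (264.4) lay between hypoxia arrays 1 and 2 (230.3 and 280.6), as on that of Col1a1 (16.8 beside 13.5 and 41). On that of Col6a2 normoxia array 1 (60.8) lay between normoxia arrays 2 and 3 (27.1 and 72.2). The dimmest of Fbln1 had its highest normoxia signal on array 1 (30.7). Both arrays were the lowest of their group on the others of Lama5 and Lamc1 and on the second of Fbln1. The opposite, both arrays more than 0.5 log2 above, held for 0 of the 27 and 1.89% of all genes. Other genes did not share the pattern: Col18a1 and Sparc had their highest hypoxia signal on array 3 and their lowest normoxia signal on array 1. These arrays were singled out after the data were seen.

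With hypoxia array 3 and normoxia array 1 left out together, which leaves 2 arrays against 2, 3 matrix genes passed the test and 2.38% of all genes did. Col4a1 was higher (log2 fold change 0.68, adjusted p = 0.0289), Col6a1 was higher (1.48, adjusted p = 0.032) and Fbln1 was lower (-0.96, adjusted p = 0.00678). The same 3 passed in the fit on all 6 arrays with the within-group component as a covariate (adjusted p = 0.00313, 0.0158 and 0.00761), where 5.75% of all genes passed. That component was taken from the same arrays that were tested, so these p-values are not independent of it. The 2 arrays left out were those on one side of the component, singled out after the data were seen. The p-values without them are therefore not independent of that choice either, and the 2 fits are not separate evidence. Col4a2 had an adjusted p of 0.0524 in the fit with the component (limma). In each fit with a single array left out, 0 of the matrix genes passed. Over all alternatives the adjusted p of Col4a1 ranged from 0.00313 to 0.671 and that of Fbln1 from 0.00678 to 0.84.

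**Figure D4:**
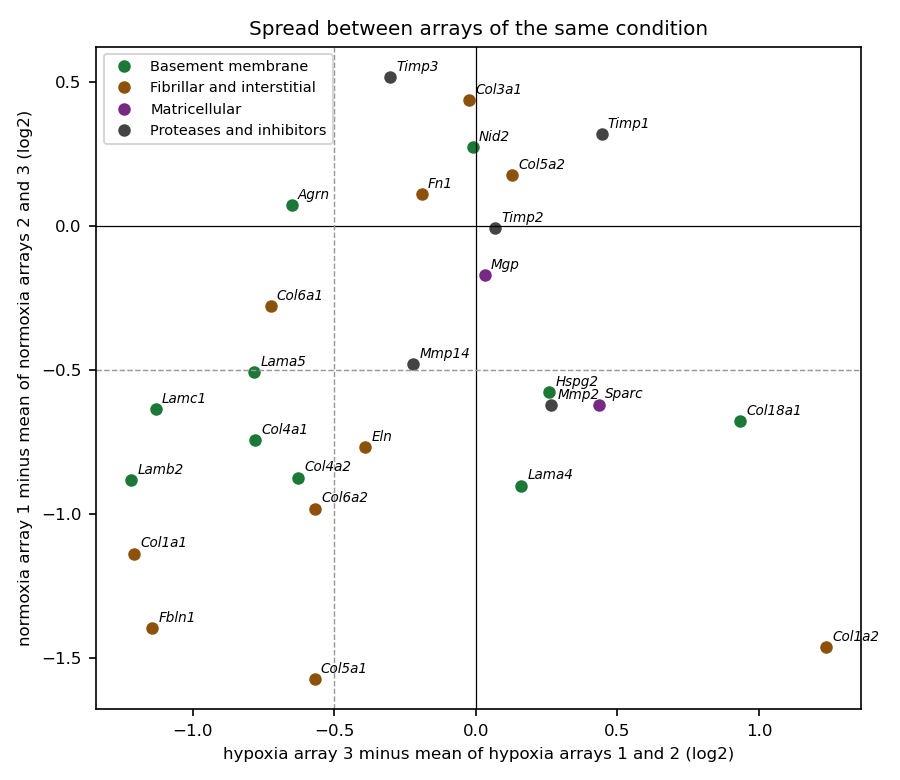
Deviation of hypoxia array 3 from the mean of the other 2 hypoxia arrays (x axis, log2) against that of normoxia array 1 from the other 2 normoxia arrays (y axis, log2) for the 27 tested matrix genes, coloured by role; dashed lines mark -0.5. The 9 genes at the lower left of both dashed lines, Col4a1 and Fbln1 among them, were low on both arrays on the probe set that represents them.

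Other genes of the matrix pathway gave no call either. Of 18 tested integrins and other matrix receptors, 21 other metalloproteinases and members of the plasminogen system, 32 other collagens, laminins, proteoglycans and glycoproteins, and 14 genes of TGF-beta signalling, 0 passed in any list (limma), and 5, 2, 7 and 3 had an unadjusted p under 0.05. These were 27.8%, 9.52%, 21.9% and 21.4% of the lists, beside 12.4% of all genes. Their median log2 fold changes were 0.07, 0.18, -0.07 and 0.13. Groups did not overlap for 3, 3, 6 and 6 genes. As shares of the lists this was 16.7%, 14.3%, 18.8% and 42.9%, beside 18.1% of all genes.

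The genes with the smallest adjusted p in each list stayed at 0.152 or above (limma). Tgfbr3, the co-receptor betaglycan, had 145.4, 117.1 and 115.4 in hypoxia and 192.5, 202 and 194.5 in normoxia (log2 fold change -0.65, SE 0.16, adjusted p = 0.152). Skil, which encodes the SMAD inhibitor SnoN, had 468.7, 415.5 and 504.5 in hypoxia and 360.5, 298.4 and 287.6 in normoxia (0.56, SE 0.15, adjusted p = 0.193). The groups of both genes did not overlap. Emilin2, an elastic fibre glycoprotein, was at -0.97 (adjusted p = 0.198). It passed with array weights (where 2.44% of all genes passed), without normoxia array 1 (1.13%), without both arrays that stood apart (2.38%) and with the within-group component (5.75%). Skil passed with array weights and with the component, and Tgfbr3, Itgav and Reck with the component. Itga8, an integrin chain, had 0.97 (adjusted p = 0.2). Itgav, the αv integrin chain that binds fibronectin, had 0.54 and Reck, a membrane-anchored inhibitor of metalloproteinases, 0.51. Adam9, a membrane protease, had 0.34, Ltbp1, which binds latent TGF-beta in the matrix, -0.52 and the proteoglycan gene Ncan -0.87. The adjusted p of these 5 lay between 0.262 and 0.347.

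The labelled cell type was checked against marker genes. All 10 atrial markers were above the filter, with a summed signal of 26137 to 27401 in hypoxia and 26739 to 27877 in normoxia. Of the 10 fibroblast markers 2 were above it, Pcolce and Ddr2, and 6 stayed under a signal of 20 on every array, among them Pdgfra and Cd34; the sums were 3269 to 3677 and 3434 to 3823. Of 8 endothelial markers 2 were above the filter and 5 stayed under 20, with sums of 158.8 to 254.5 and 176.8 to 244.8. Of 8 smooth muscle and pericyte markers 2 were above the filter (Acta2 and Notch3) and 6 stayed under 20, with sums of 8245 to 10683 and 8256 to 9685. Of 7 macrophage markers 4 were above it and 3 stayed under 20, with sums of 117.1 to 150.8 and 95.4 to 153.5. In RNA of a whole culture, fewer cells of a type and less RNA per cell cannot be told apart. Of 6 epicardial and mesothelial markers 3 were above the filter and 3 stayed under 20. Their sums, 168.8 to 214.2 in hypoxia and 131.1 to 163.1 in normoxia, did not overlap, while those of the other 5 lists did. Pcolce made up most of the fibroblast sum (means 3092 in hypoxia and 3149 in normoxia) and Acta2 most of the smooth muscle sum (9450 and 8948). The overlap of those 2 sums therefore says little about their other markers. Tbx18 made up most of the epicardial and mesothelial sum, with means of 138.9 in hypoxia and 100.2 in normoxia. Its own groups overlapped, as did those of Wt1, Krt19 and Aldh1a2. The groups of Upk3b and Msln did not overlap. Upk3b had 15.9, 24.8 and 19 in hypoxia and 13.1, 11.7 and 15.2 in normoxia. Msln, below the filter, had 11.6, 9.4 and 9.3 in hypoxia and 2.6, 0.8 and 1.9 in normoxia. In the 6 lists 0 markers passed the test (limma). Outside this last list the groups did not overlap for Nppa, Sln, Notch3 and Cd68, higher in hypoxia, and for Myl4, lower. The macrophage marker Cd68 had 39.3, 49.2 and 43.4 in hypoxia and 25.3, 18.8 and 16.5 in normoxia (adjusted p = 0.157, limma). Among all genes tested the groups did not overlap for 18.1%. The part of these markers in the matrix signals was not tested.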

How the data were processed

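The table deposited by the authors held 45037 probe sets on 6 arrays as intensity on a linear scale. MAS5 is the tool named, per the submitters' processing notes, with no version or parameters. The mean trimmed by 2% at each end lay between 99.47 and 99.53 on every array, so no further scaling was applied. The medians lay between 15 and 19. MAS5 signals near background vary widely, detection calls were not used here, and precision is limited by how few arrays there were.

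Before taking log2, 10 zeros were replaced by 0.1, the lowest non-zero signal. Probe sets with a mean log2 signal above the median, a geometric mean signal of 14.1, were kept (22518). The 2 conditions were contrasted in R 4.3.3 by limma 3.58.1 (lmFit, then eBayes with trend, two-sided, no covariate), with Benjamini-Hochberg adjustment over all kept probe sets, and a call at an adjusted p under 0.05. Intervals use the moderated SE. An exact permutation test of 3 against 3 cannot go below 0.1. The procedure was tested on simulated data.

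Names came from a platform annotation dated 2016 (34945 probe sets with 1 symbol, 932 with several, 9160 with none; the last 2 kinds name no gene here). Gene IDs of all 38 genes matched RefSeq GRCm38.p6. Promoters came from RefSeq. The genes and lists were chosen with earlier results of these data known. Genes given in full were, per role, the 4 with the highest mean signal and the 2 with the largest absolute log2 fold change, others being named beside them; of each further list, the 2 with the smallest adjusted p. Ltbp1 tied with Ncan, and Col6a3 was named as a partner chain outside that rule, after its values were seen. Alternatives are listed in the closing section.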

Additional observations from a re-analysis of the deposited data

How the results depend on the processing

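Of 20 alternatives, the 18 planned ones left 0 calls among the matrix genes, except array weights with 1 (Col6a1). The 2 chosen after seeing the data, the within-group component as covariate and the fit without both hypoxia array 3 and normoxia array 1, gave 3 each. The fits with 1 array left out gave 0 to 0 among the matrix genes, 0 to 1 among the further lists and 39 to 200 over all probe sets, where the fit on all arrays called 137. Over all probe sets, eBayes without trend called 18, the mean of the probe sets of a gene 83, array weights 437, the component as covariate 1066 and the fit without both arrays 439; in the further lists, array weights called 2, the component 10 and the fit without both arrays 1. Quantile normalization, median centring, an offset of 2.9, no filter, filters at the 25th and 75th percentile, robust eBayes and leaving out _x_at and _s_at probe sets left 0 in both sets. Replicate numbers did not pair the arrays: deviations of same-numbered arrays correlated at -0.08, 0.21 and -0.14, and the replicate block called 0 matrix genes and 0.556% of all genes. For 20 of 27 genes the sign held in every fit that gave a value. Of the others, median centring, which moved the median of all genes from -0.04 to 0.07, turned Timp2 to 0.067, array weights turned Col18a1 to -0.076 and Col5a2 to -0.043, and the fit without both arrays turned Col18a1 to -0.24. With 1 array left out, Col18a1 ranged from -0.018 to 0.60, Lamc1 from -0.61 to 0.079, Nid2 from -0.0034 to 0.29, Agrn from -0.12 to 0.25, Col5a2 from -0.056 to 0.44, Timp2 from -0.079 to 0.011 and Timp3 from -0.10 to 0.61. The cause was not tested. Dim genes could not be fitted under the filter at the 75th percentile, which kept 14 of the 27.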
